A study of Mus musculus with 11 samples.

Results

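The comparison is between Ly6C negative and Ly6C positive naive CD4 T cells that share an intermediate level of a T cell receptor reporter. Its members are 6 of the 11 ATAC-seq libraries of the study, chosen by their sort labels, and all 45508 listed peaks were compared. Population C (reporter intermediate, Ly6C negative) and population B (reporter intermediate, Ly6C positive) each have 3 libraries, 1 from each of mice 1, 2 and 3. The other 5 libraries are population D (reporter high, Ly6C negative, mice 1 to 3) and population A (reporter low, Ly6C positive, mice 1 and 3), and they enter as part of the model and as a comparison that shares no library with C or B. All mice were untreated, were on a C57/BL6 background and carried the transgene Tg(Nr4a1-EGFP)GY139Gsat and the targeted mutation Foxp3tm1Flv, so C and B differ in none of these. Cells came from spleen and lymph nodes, were gated as CD44 low without signal from the Foxp3 reporter, and each library used 10000 sorted cells tagmented for 1 h at 37 °C. The ages and sexes of the mice are not given in the sources used here.

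In ATAC-seq the transposase Tn5 inserts sequencing adapters where chromatin is open, so the reads at a peak measure how accessible it is. The EGFP transgene is driven by regulatory sequence of Nr4a1 (Nur77), an immediate early gene that responds to signals through the T cell receptor, and in resting naive cells its brightness follows the signals that cells receive from self peptides. Ly6C is a small surface protein anchored by a lipid, encoded by Ly6c1 and Ly6c2, and naive CD4 cells with stronger self recognition tend to carry less of it. C against B therefore asks what goes with the loss of Ly6C when the reporter gate is the same. The gate is a range of brightness, and the level of the reporter within it is not given for C or B in the sources used here.

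Values are rppm, the authors' read counts at a peak scaled to the depth of the library (an RPM unit), and log2 differences are on log2(rppm + 1), which understates ratios at low peaks. The scaling totals were 5095885 to 35244029 reads in C and 8736371 to 25061503 in B, so a peak at 10 rppm rested on 51 to 352 reads in C and on 87 to 251 in B. Between 93.5% and 94.3% of these reads lay in the listed peaks in C and between 94.2% and 94.4% in B. B replicate 1 stood apart at 2 adjacent peaks near Col19a1 on chromosome 1, where it held 1066 rppm against 4332 to 8186 rppm in the other libraries. Peaks of 7 of 8 CD4 T cell genes summed to 759 to 828 rppm in C and 798 to 825 rppm in B, and Trac had no listed peak. Peaks of 4 B cell marker genes summed to 49.8 to 64.7 rppm in C and 51.4 to 57.2 rppm in B. Of the myeloid and dendritic markers, Csf1r and Lyz2 had none, and the other 8 of 10 summed to 145 to 161 rppm in C and 157 to 163 rppm in B. Of the CD8 T and NK markers, Ncr1 and Nkg7 had none, and the other 7 of 9 summed to 535 to 576 rppm in C and 555 to 585 rppm in B. The same mouse numbers mark the same animals in C and B, and libraries of 1 mouse deviated together from their population means.

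Few peaks were called between C and B. With all 4 populations in a limma model without a term for the mouse, 1 of 45508 peaks (0.0022%) was called at a Benjamini-Hochberg adjusted p under 0.05, and it was higher in C. At an unadjusted p under 0.05 there were 1820 peaks. With the mouse as a term of the model the estimates were the same at all peaks. The median standard error was 0.135 with the term and 0.161 without it, though the error was larger with it at some peaks. With the mouse term 88 peaks (0.193%) were called, 71 higher in C (0.156%) and 17 lower in C (0.0374%), with 3115 peaks at an unadjusted p under 0.05. Without the mouse term, 70 of the 71 and all 17 missed the threshold. The calls with the mouse term also depended on single libraries: without C replicate 1, 2 or 3 or without B replicate 3 in turn 1 peak was left, without B replicate 1 there were 19 and without B replicate 2 there were 4. Without mouse 2 there was 1, without mouse 3 there was 0, and without mouse 1 there were 480. The sign of all 88 was unchanged in each of these fits. Each of the 88 had the same sign in all 3 mice, so leaving out 1 mouse could not change it.

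**Figure D1:**
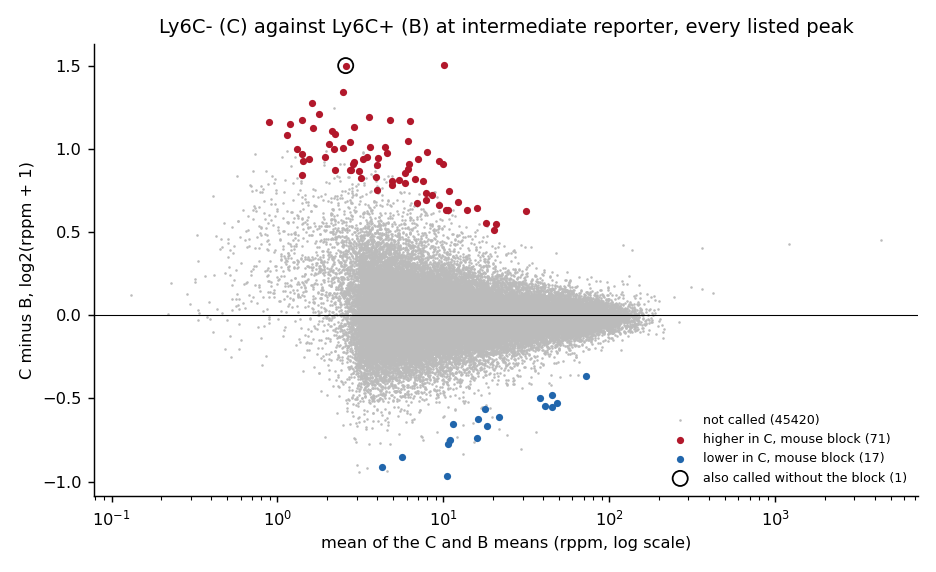
Each point is 1 of 45508 peaks, with the mean of the C and B means in rppm on a log scale along the x axis and the C minus B log2 difference on the y axis. The 71 peaks higher in C with the mouse term reach 1.51 and the 17 lower ones reach -0.96, while most peaks lie close to 0, and the peak in the circle is the 1 called without the mouse term.

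On the scale of log2(rppm + 1) the difference could be measured closely at most peaks. The 95% interval of C minus B in the limma model without the mouse term lay within a 2-fold change on that scale in either direction at 98.6% of peaks and within 1.5-fold at 77.1%, and with the mouse term at 99.2% and 87.1%. At the 14072 peaks with a mean of 20 rppm or more, 96.7% lay within 1.5-fold without the mouse term. Intervals were wider at low peaks, where 53.3% of the 10433 peaks under 5 rppm lay within 1.5-fold. Ratios of rppm at low peaks are larger than this scale shows, so these folds are not limits on the ratios there.

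The genes of the sort were examined as a check. Ly6c1 had 7 listed peaks, and all 7 had a lower estimate in C, between -0.74 and -0.17. Its peak with the smallest p, 14.9 kb from the start site (chr15:75033381-75034218, mm10), had 10.8, 12.1 and 10.1 rppm in C and 16.4, 16.8 and 15.1 rppm in B. All 3 C libraries were below all 3 B libraries, the log2 difference was -0.51, and it was not called by limma (adjusted p = 0.325, or 0.0737 with the mouse term). The closest Ly6c2 peak by the same rule had 10.6, 10.9 and 12.3 rppm in C and 13.8, 13.3 and 14.1 rppm in B, with a log2 difference of -0.27 (limma, adjusted p = 1.0), and 3 of its 5 peaks had a higher estimate in C. Since the cells were sorted on this protein, a difference at its genes is no separate finding. At Nr4a1, whose regulatory sequence drives the reporter, the peak with the smallest p (20.3 kb away) had 84.8, 71.1 and 71.4 rppm in C and 86.4, 75.5 and 77.8 rppm in B. The groups overlapped there, and the estimates of its 8 peaks ran from -0.08 to 0.08 with 0 called.

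None of the peaks of the other gate genes was called. The single Foxp3 peak, in an intron of the gene of the regulatory T cell factor, had 4.12, 3.50 and 5.02 rppm in C and 4.34, 3.21 and 4.43 rppm in B, and the groups overlapped. Cd44, the gate marker that rises on activated and memory cells, had 15 peaks with 0 called, and its leading peak had 1.57, 1.65 and 2.33 rppm in C and 0.445, 0.572 and 0.279 rppm in B, 4.28-fold higher in C without overlap (log2 difference 0.99, limma adjusted p = 0.291, or 0.0982 with the mouse term). That peak lies in intergenic sequence, 55.4 kb from the start of Cd44. Of the 15 Cd44 peaks, 6 had a higher and 9 a lower estimate in C, with a median of -0.04. All C libraries were above all B libraries at 2 of the 15 and below at 2, against 5.73% and 3.87% of all peaks. The leading peak of Cd4 had a log2 difference of -0.25 with overlapping groups. That of Cd8a had 8.83, 7.40 and 7.38 rppm in C and 6.90, 4.92 and 5.59 rppm in B, 1.36-fold higher in C without overlap (log2 0.39), and neither was called (limma, adjusted p = 1.0).

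One gain in C was at the promoter of Tnfrsf4, which encodes the costimulatory receptor OX40 of the TNF receptor family. The peak over its start site (chr4:156013166-156014264) had 12.2, 13.4 and 12.3 rppm in C and 6.24, 6.41 and 5.83 rppm in B. No C library came near a B library, the means differed by 2.05-fold, and the log2 difference was 0.93 ± 0.13 (SE; limma with the mouse term, adjusted p = 0.0119, or 0.07 without it). Across the 4 populations the mean was 4.73 rppm in A, 6.16 in B, 12.6 in C and 15.2 in D. Tnfrsf4 had 1 other listed peak, with an estimate of 0.04.

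Of the 88 called peaks 9 lay within 1 kb of a start site, all higher in C, against 26.8% of all listed peaks. For 7 of them the 250 bases before the start were read from RefSeq (GRCm38.p6) and searched for motifs. Of these 3 are shown, because between them they hold each of the 3 motifs that were found. Tnfrsf4 is chr4:156013445-156013694, plus strand. Plscr1, the gene of a phospholipid scramblase induced by interferon, is chr9:92249944-92250193, plus strand. Dclk1, a doublecortin-like kinase gene, is chr3:55461478-55461727, plus strand, of which 119 bases lie in the peak. Capitals mark matches to the motifs searched.
Tnfrsf4: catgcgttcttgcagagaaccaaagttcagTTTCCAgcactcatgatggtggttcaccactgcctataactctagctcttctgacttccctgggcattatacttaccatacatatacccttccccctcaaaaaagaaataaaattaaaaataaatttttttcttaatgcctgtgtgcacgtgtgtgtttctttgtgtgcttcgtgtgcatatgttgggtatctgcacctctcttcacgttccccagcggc
Plscr1: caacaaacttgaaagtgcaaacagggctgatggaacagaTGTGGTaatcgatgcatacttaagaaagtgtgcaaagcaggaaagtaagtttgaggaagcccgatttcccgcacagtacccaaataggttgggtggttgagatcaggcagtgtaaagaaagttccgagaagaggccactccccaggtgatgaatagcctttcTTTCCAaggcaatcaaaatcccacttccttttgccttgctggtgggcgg
Dclk1: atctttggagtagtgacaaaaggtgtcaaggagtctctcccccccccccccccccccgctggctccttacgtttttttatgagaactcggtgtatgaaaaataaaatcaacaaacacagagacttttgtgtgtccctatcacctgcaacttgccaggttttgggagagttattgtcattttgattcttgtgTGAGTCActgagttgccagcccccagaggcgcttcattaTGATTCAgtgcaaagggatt

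The motifs were searched on both strands as the letters AAAGGTCA (NR4A), TGANTCA (AP-1), TGGAAA (NFAT), TGTGGT (RUNX) and as the NF-kB motif, with each promoter counted at the start site with most bases in the peak, and no match in the 3 printed promoters overlapped another. The NFAT letters occurred in 4 of the 7 called promoters (Tnfrsf4, Plscr1, Dhrs3 and Sh3gl3) and in 18.6% of 32851 promoter windows of the same length. RUNX letters occurred in 1 of 7 (Plscr1) and in 4614 of all 32851 windows, and AP-1 letters in 1 of 7 (Dclk1, with 2 matches) against 6.75%. At Dhrs3, windows of other start sites, with 166 and 106 bases in the peak, held 3 RUNX matches each and were not counted among the 7. The NR4A letters occurred in 0 of 7 and in 1.34% of windows, and the NF-kB motif in 0 of 7 and 0.356%. A match is a run of letters and says nothing of binding, and Gucy1b1 and Slc9b2 held none of the motifs searched. The Plscr1 peak had 8.24, 7.10 and 6.13 rppm in C and 4.23, 2.98 and 3.71 rppm in B, and the Dclk1 peak 3.53, 2.57 and 2.44 rppm in C and 1.45, 0.458 and 1.16 rppm in B. Neither pair of groups overlapped (log2 differences 0.81 and 0.95, limma with the mouse term adjusted p = 0.0351 and 0.0292).

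Ctla4 and Icos are neighbouring receptor genes on chromosome 1 with 1 called peak each. Ctla4, an inhibitory receptor that competes with CD28, had 1 called peak of 15, in intron 3 (chr1:60913269-60913747). It had 6.28, 6.68 and 6.50 rppm in C and 2.90, 3.55 and 3.67 rppm in B, a 1.92-fold difference with no overlap (log2 0.78 ± 0.14, SE; limma with the mouse term, adjusted p = 0.0303, or 0.162 without it). In D the same peak averaged 23.0 rppm and in A 2.70 rppm. All C libraries were above all B libraries at 5 of the 15 Ctla4 peaks and at 5 of the 22 Icos peaks, against 5.73% of all peaks. Icos, a costimulatory receptor, had 1 called peak of 22, in intergenic sequence 72.6 kb from its start (chr1:61050165-61050809), with 3.73, 3.50 and 2.33 rppm in C and 1.00, 1.72 and 1.12 rppm in B. All C libraries were above all B libraries (log2 0.87 ± 0.16, SE; limma with the mouse term, adjusted p = 0.0384, or 0.21 without it).

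Ikzf2 encodes Helios, an Ikaros family factor found in regulatory T cells and in cells with strong self recognition. Its called peak in intron 6 (chr1:69544126-69544705) had 2.36, 1.85 and 1.79 rppm in C and was nearly closed in B, with 0.780, 0.114 and 0.239 rppm. The ratio of means was 5.29 and the log2 difference 1.15 ± 0.17 (SE; limma with the mouse term, adjusted p = 0.0156, or 0.172 without it). Of its 11 peaks, 10 had a higher estimate in C and 5 had all C libraries above all B libraries, against 48.5% and 5.73% of all peaks. Nt5e encodes CD73, the ectoenzyme that makes adenosine from AMP. All 7 of its peaks had a higher estimate in C (0.30 to 0.55), and at 5 of them all C libraries were above all B libraries, against the same shares of all peaks. Its called peak in intron 1 (chr9:88329026-88329859) had 22.4, 21.6 and 21.1 rppm in C and 14.4, 15.9 and 13.2 rppm in B, a 1.5-fold difference (limma with the mouse term, adjusted p = 0.038, or 0.202 without it).

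**Figure D2:**
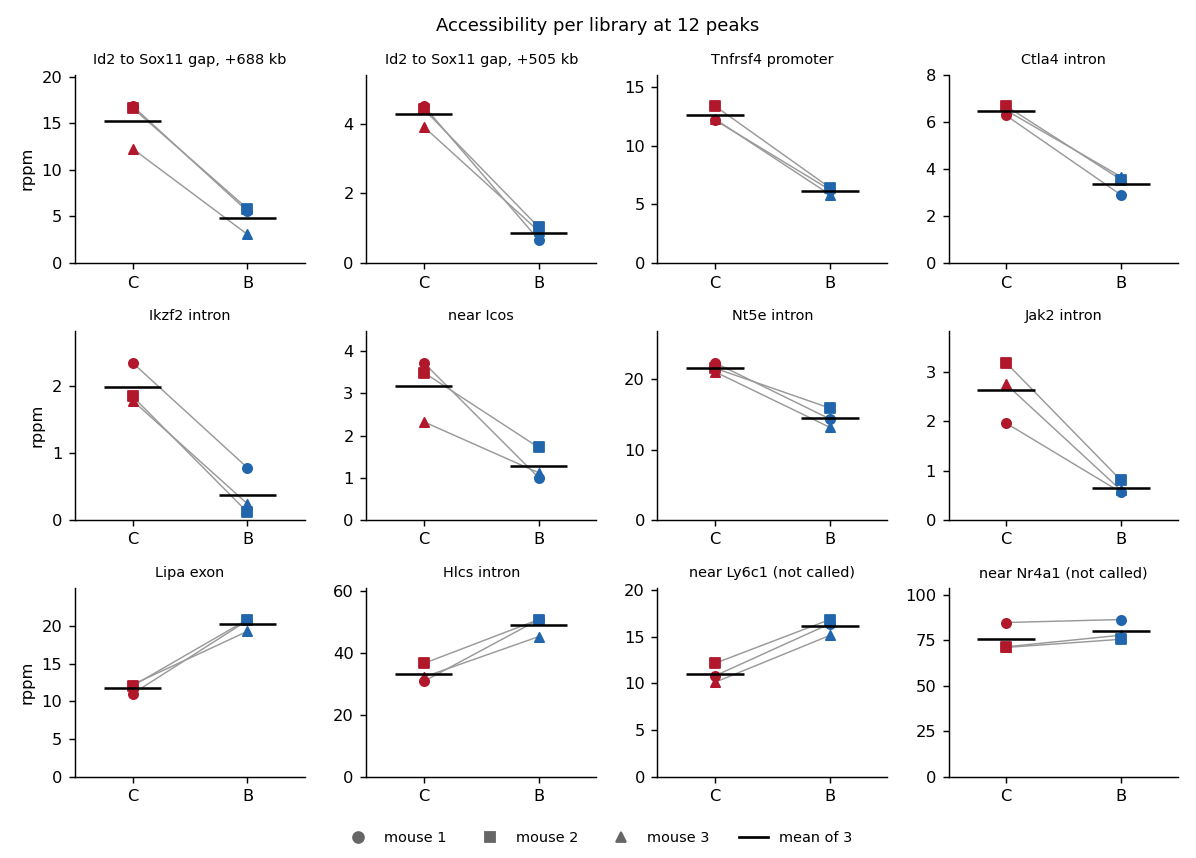
Accessibility in rppm of each library at 12 peaks, with C left and B right, markers for the 3 mice, grey lines joining libraries of 1 mouse and black bars for the means. At the first 8 peaks every C library lies above every B library, at Lipa, Hlcs and Ly6c1 every C library lies below every B library, and at Nr4a1 the groups overlap.

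Jak2, Pde7b and Nab1 also had called peaks. Jak2, a cytokine receptor kinase, had a called peak in intron 2 (chr19:29271038-29271587) with 1.96, 3.19 and 2.75 rppm in C and 0.557, 0.801 and 0.599 rppm in B. The means differed by 4.04-fold without overlap (log2 1.13 ± 0.16, SE; limma with the mouse term, adjusted p = 0.015, or 0.07 without it). The peak in the first intron of Pde7b, a phosphodiesterase that degrades cAMP, had 10.4, 8.54 and 9.53 rppm in C and 3.56, 4.81 and 5.11 rppm in B (log2 0.94, limma with the mouse term adjusted p = 0.0156). A peak 125.3 kb from Nab1, a corepressor of Egr factors, had 4.71, 6.27 and 5.85 rppm in C and 2.12, 2.40 and 2.75 rppm in B (log2 0.95, adjusted p = 0.0156 by the same fit). At all 3 peaks every C library was above every B library, which the rule that named Pde7b and Nab1 required.

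The rule for named peaks, applied to the calls with the mouse term after their values had been seen, also gave Farsb, Bckdhb, Litaf, Heg1, Slc22a2, Tmem65, Fntb, Hdc and Endod1 as higher in C. Their log2 differences ran from 0.83 at Endod1 to 1.19 at Farsb. Farsb encodes a subunit of the phenylalanine tRNA synthetase, and the peak in its intron 17 had 5.89, 3.91 and 6.21 rppm in C and 1.67, 1.49 and 2.08 rppm in B. Bckdhb encodes a subunit of the enzyme that breaks down branched-chain keto acids, and the peak 31.8 kb away had 10.8, 7.198 and 7.63 rppm in C and 4.90, 2.40 and 3.71 rppm in B. At both, C replicate 2 was the lowest C library and B replicate 2 the lowest B library. The authors' gene is the one with the nearest start, and of 60 called peaks inside a transcript that matched the annotation, 17 lay in another gene: the peak given to Heg1 lies in intron 6 of Slc12a8 and the one given to Hdc in intron 3 of Gabpb1.

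At 6 of the 71 the mean of C was at least that of D, and at 29 the mean of D was 2 or more times that of C. Swap70, a gene of a protein that binds phosphoinositides, had 4.71, 4.01 and 4.17 rppm in C and 2.34, 1.95 and 1.48 rppm in B at its called intron 2 peak, and its means were 0.834 rppm in A, 1.92 in B, 4.30 in C and 26.4 in D. Fntb, the beta subunit of farnesyltransferase, had 5.30, 5.76 and 5.45 rppm in C and 2.12, 2.63 and 2.71 rppm in B, and its means were 2.64 rppm in A, 2.49 in B, 5.50 in C and 5.11 in D. The C minus B log2 differences of these 2 peaks were 0.87 and 0.90, while the D mean was far above the C mean at Swap70 and below it at Fntb. Litaf had 2 called peaks in its first intron, and their D means of 5.15 and 9.94 rppm stood beside C means of 5.21 and 9.97 rppm.

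The peak called without the mouse term lay in a stretch with few genes on chromosome 12 between Id2, an inhibitor of E protein transcription factors, and Sox11, a developmental factor. It was singled out after its values were seen, because its nearest gene by the authors is the clone Gm17746, 471.9 kb away. At chr12:25600650-25601483, 505 kb beyond the end of Id2, it had 4.51, 4.42 and 3.92 rppm in C and 0.668, 1.03 and 0.918 rppm in B. Accessibility was thus 4.91-fold higher in C, and the log2 difference was 1.5 ± 0.17 (SE; limma, adjusted p = 0.0199, or 0.00469 with the mouse term). Its A libraries had 0.435 and 0.101 rppm and its D libraries 8.47, 6.40 and 8.14 rppm. Leaving out any C or B library, D replicate 3 or any 1 mouse ended the call, as did a pseudocount of 5, quantile normalization and thinning to equal reads, at log2 differences between 0.66 and 1.57.

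The same stretch of 2238.2 kb held 45 listed peaks and 3 protein-coding genes, Cmpk2, Rsad2 and Rnf144a, all in its far part. With the mouse term 6 of the 45 peaks (13.3%) were called higher in C and 0 lower, against 0.156% and 0.0374% of all peaks, and these 6 lay within 408.0 kb. At 21 of the 45 (46.7%) all C libraries were above all B libraries, against 5.73% of all peaks, and at 0 all were below, against 3.87%. In D minus A, 23 of the 45 were called higher in limma without the mouse term, against 8.7% of all peaks. The stretch was taken up after its values were seen, and the peak called without the mouse term counts among the 6, the 21 and the 23. These shares therefore describe the stretch and are no test of it. The largest log2 difference was at chr12:25784164-25785005, with 16.9, 16.7 and 12.3 rppm in C and 5.57, 5.84 and 3.07 rppm in B (1.51 ± 0.14, SE; limma with the mouse term, adjusted p = 0.000403, or 0.0954 without it). Both groups were lowest in mouse 3 there, and the means were 2.49 rppm in A, 4.83 in B, 15.3 in C and 25.3 in D. The highest of the 6 peaks, at chr12:25958311-25959517, had 43.0, 37.3 and 34.7 rppm in C and 25.6, 25.9 and 21.9 rppm in B, a 1.57-fold difference. At chr12:26007506-26008634 the means were 2.36 rppm in A, 2.62 in B, 6.93 in C and 5.41 in D. The peaks share 1 locus and are not independent measurements, and which gene they act on is not measured here.

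**Figure D3:**
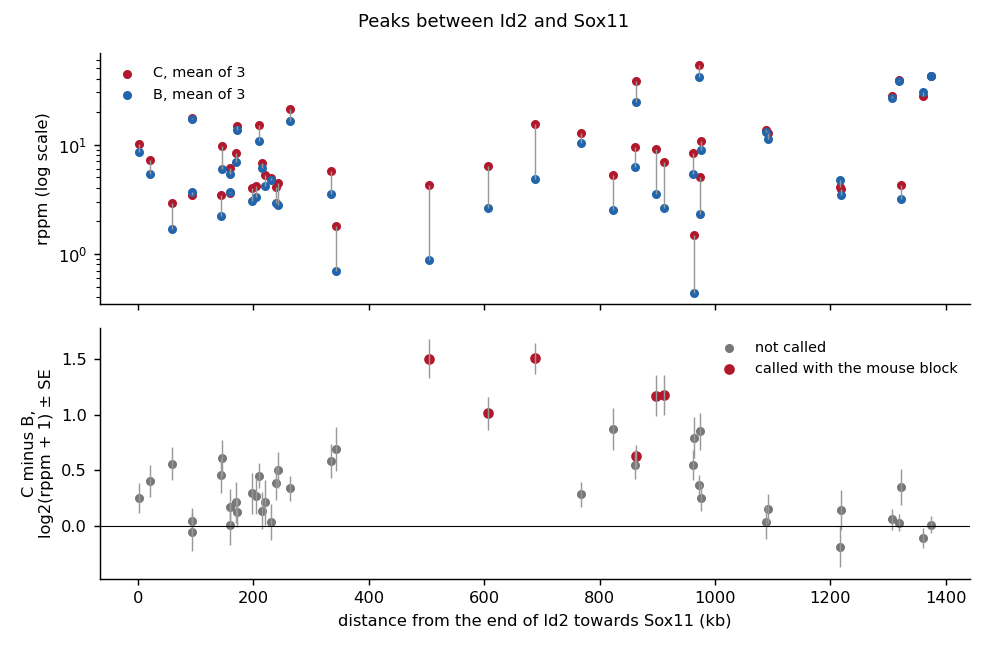
Peaks between Id2 and Sox11 by distance in kb from the end of Id2. Above, the means of 3 C and 3 B libraries in rppm on a log scale. Below, the C minus B log2 difference with its standard error from the fit with the mouse term. The called peaks lie between 505 and 912 kb and between 0.62 and 1.51, and from 1089 kb on the estimates are between -0.18 and 0.35.

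Fewer peaks were called lower in C. The 17 called peaks had log2 differences from -0.96 to -0.37, none of them 2-fold on that scale, and their median level was 14.1 rppm in C and 21.3 rppm in B, against 5.50 rppm in C and 2.52 rppm in B for the 71 gains. None lay within 1 kb of a start site. A peak over exon 4 of Lipa, the lysosomal acid lipase gene (chr19:34510603-34511429), had 11.0, 12.03 and 12.2 rppm in C and 20.7, 20.8 and 19.3 rppm in B (log2 -0.74 ± 0.11, SE; limma with the mouse term, adjusted p = 0.0151, or 0.0839 without it). A peak 78.5 kb from Oxsm, a gene of mitochondrial fatty acid synthesis, had 7.07, 7.51 and 8.09 rppm in C and 12.8, 13.96 and 14.2 rppm in B (log2 -0.78). In both cases the C libraries were all below the B libraries, which the rule that named these peaks required, and close to each other.

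The same held at intron 5 of Hlcs, the enzyme that attaches biotin to carboxylases, with 30.8, 36.6 and 32.2 rppm in C and 50.8, 50.8 and 45.3 rppm in B (log2 -0.55, limma with the mouse term adjusted p = 0.0223). A peak in intron 20 of Flt3, assigned to Urad by its start site, had 37.7, 34.1 and 37.1 rppm in C and 52.7, 55.2 and 52.9 rppm in B (log2 -0.55, adjusted p = 0.0156 by the same fit). A peak in intron 36 of Iqgap1, assigned to Crtc3, had 8.44, 8.23 and 9.14 rppm in C and 14.5, 14.99 and 12.8 rppm in B, and one in intron 3 of Fanci, a DNA repair gene, had 17.1, 17.1 and 16.1 rppm in C and 29.6, 23.1 and 25.9 rppm in B. The named losses also included peaks assigned to Trps1, Zfp507, Sall3, Tubb2a, Fam163b and Mir8104, with log2 differences from -0.91 at Zfp507 to -0.53 at Mir8104. Trps1 and Zfp507 encode zinc finger proteins, and the peaks assigned to them lie in intergenic sequence, 988.8 kb and 188.4 kb from their start sites. Those peaks had means of 3.77 and 2.66 rppm in C and 7.52 and 5.83 rppm in B. The Sall3 peak lies 224.4 kb from its start site. The Mir8104 peak lies in intron 1 of Ppm1h and the Tubb2a peak in intron 3 of 4930447K03Rik.

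Lists of genes by function were chosen with earlier results of these data known and are described by counts, with a median log2 difference over all listed peaks of -0.0046. The regulatory T cell list had 4 peaks called higher with the mouse term of 126 (Tnfrsf4, Ctla4, Ikzf2 and Nt5e) and 0 lower, where 0.156% of all peaks were called higher and 0.0374% lower. All C libraries were above all B libraries at 22.2% of its peaks against 5.73% of all, and below at 3.97% against 3.87%. Its median was 0.06, and summed over a marker set of 8 such genes the level was 579 to 597 rppm in C and 566 to 572 rppm in B. Within that marker set Il2ra went the other way, with a lower estimate in C at 10 of its 10 peaks. The single Foxp3 peak had an estimate of 0.06 with overlapping groups. The follicular helper list had 2 called higher of 194 (Icos and Ikzf2), 17.0% of its peaks with C above B, 0.515% with C below B and a median of 0.07. The list of negative regulators of activation had 2 called higher of 481 (Ctla4 and Nt5e), 11.6% with C above B, 3.33% below and a median of 0.02. The 0.156% of all peaks is the share to set beside each of these counts. These lists share genes, so their counts are not separate. Cells positive for the Foxp3 reporter were sorted out of all populations, and whether a few remained was not tested.

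Genes that lead one or more lists by smallest p without a call included Cd200, an inhibitory ligand, with 5.69, 4.94 and 4.54 rppm in C and 2.56, 2.98 and 2.75 rppm in B at its leading peak (log2 0.68, limma with the mouse term adjusted p = 0.136). The leading peak of Ndrg1, which is expressed in anergic T cells, had 2.36, 2.47 and 1.248 rppm in C and 0.445, 0.458 and 0.718 rppm in B (log2 0.95, adjusted p = 0.0548 by the same fit), and 9 of its 13 peaks had all C libraries above all B libraries, against 5.73% of all peaks. Maf, a factor of follicular helper and interleukin-10 producing cells, had 1.57, 1.34 and 2.78 rppm in C and 0.668, 0.458 and 0.439 rppm in B at its leading peak (log2 0.90, adjusted p = 0.0616 by the same fit). That peak lies 570 kb from the start of Maf, in intron 8 of Wwox. The leading peaks of Cd200 and Ndrg1 lie in intergenic sequence, 62.2 kb and 93 kb from their start sites. The promoter of Il2rb, a chain of the interleukin-2 and interleukin-15 receptors, had 18.4, 17.3 and 19.04 rppm in C and 13.7, 11.9 and 13.0 rppm in B (log2 0.47, adjusted p = 0.0737 by the same fit). At each of these 4 peaks the groups did not overlap, but none passed the threshold.

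Genes induced by the T cell receptor had 2 peaks called higher of 256 (Tnfrsf4 and Icos), 7.42% with C above B and 3.91% below, and a median of -0.01. Over all peaks 0.156% were called higher with the mouse term, 5.73% had C above B and 3.87% had C below B. Il2ra, a chain of the interleukin-2 receptor, had 10 peaks with a lower estimate in C of 10, and its leading peak had 20.4, 21.1 and 19.5 rppm in C and 24.2, 27.4 and 29.7 rppm in B (log2 -0.39, limma with the mouse term adjusted p = 0.132). That estimate was 0.02 when libraries were thinned to equal reads. The list of NF-kB, NFAT and AP-1 transcription factors had 0 called of 160, 3.75% above and 6.25% below. The effector and memory list had 0 called of 198, 8.08% above and 4.04% below.

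Lists of naive cell, T cell identity and cytokine receptor genes are set beside the shares of all peaks. Those are 5.73% with C above B, 3.87% with C below B and 0.156% called higher with the mouse term. The naive homing and quiescence list had 0 called of 637 peaks, 25 peaks (3.92%) with C above B and 28 below, and a median of -0.02. Its leading peak, 191.2 kb from Runx1, had 14.5, 13.4 and 12.7 rppm in C and 8.69, 9.16 and 8.74 rppm in B (log2 0.56, limma with the mouse term adjusted p = 0.0518). Bach2, a repressor that holds back effector genes, had 54 peaks with 0 called, 26 with a higher and 28 with a lower estimate. Core T cell identity genes had 0 called of 505 (5.15% above, 4.36% below), genes of thymocytes and recent emigrants 1 higher of 257 (Ikzf2, with 9.73% above and 5.45% below), and cytokine receptor and Jak-Stat genes 1 higher of 394 (Jak2, with 5.33% above and 7.11% below).

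The Ly6 cluster holds the genes of the sorted protein. Of its 43 peaks 0 were called, 10 (23.3%) had all C libraries below all B libraries against 3.87% of all peaks, 0 had them above, and the median was -0.11. The leading peak of Ly6e, which encodes a Ly6 protein induced by interferon, had 23.0, 26.4 and 25.7 rppm in C and 30.0, 33.1 and 34.5 rppm in B (log2 -0.36, limma with the mouse term adjusted p = 0.109). At the promoter of Ly6a (the Sca-1 gene) the libraries had 4.51, 5.04 and 6.13 rppm in C and 6.46, 8.81 and 8.14 rppm in B (log2 -0.50, adjusted p = 0.414 by the same fit). Genes of the type I interferon response had 0 called of 146, 2.05% above and 4.79% below, with a median of -0.04, and at the promoter of Ifit3b the libraries had 21.6, 23.2 and 29.8 rppm in C and 29.8, 29.5 and 32.3 rppm in B, with overlap. Genes of B cells (33 peaks, 0.0% above and 3.03% below), of myeloid and dendritic cells (52 peaks, 5.77% and 11.5%) and of CD8 T and NK cells (83 peaks, 1 above and 7 below) had 0 called. The shares of all peaks to set beside these lists are 5.73% above and 3.87% below.

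**Figure D4:**
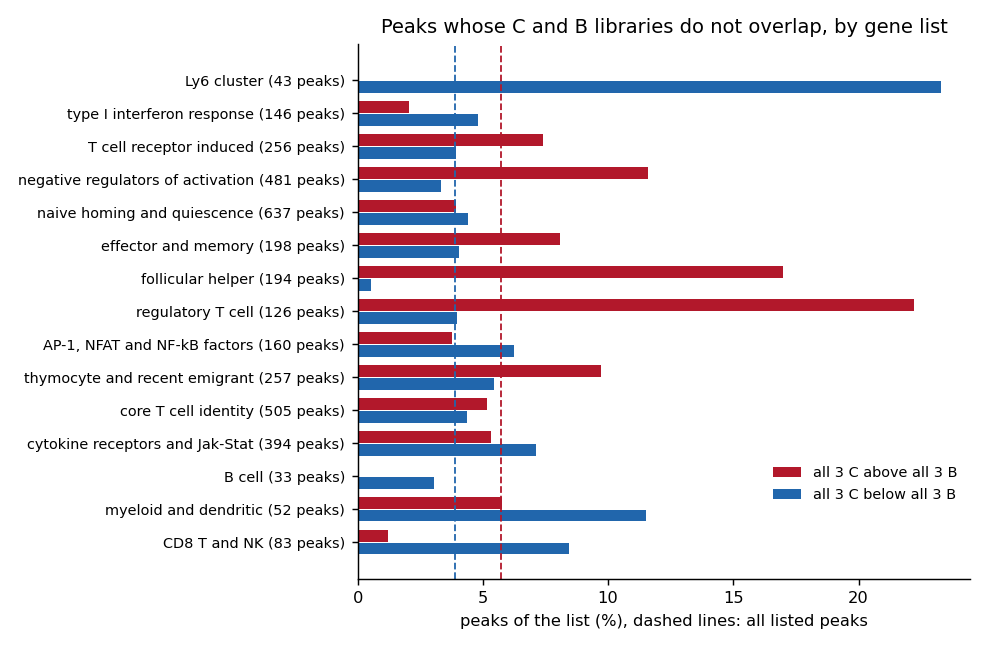
Percent of the listed peaks of each gene list at which all 3 C libraries lie above (red) or below (blue) all 3 B libraries, with dashed lines at the shares over all peaks, 5.73% and 3.87%. The regulatory T cell list has 22.2% above, the follicular helper list 17.0% above and the Ly6 cluster 23.3% below.

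The difference between C and B was set beside the one between D and A, which comes from 5 other libraries of the same mice. D and A differ in Ly6C as well as in the reporter, so D minus A crosses the same Ly6C gate as C minus B. D minus A called 3957 peaks higher (8.7%) and 1701 lower (3.74%) in limma without the mouse term, and 5667 (12.5%) and 4001 (8.79%) with it. Every listed peak reached 1 rppm in 3 or more libraries, so a peak at that level only in the 2 libraries of A is not in these counts. All 71 peaks higher in C were also called higher in D, and 13 of the 17 lower in C were called lower in D. In fits that share no library or variance, C minus B from B and C alone with the mouse term called 133 peaks higher (0.292%) and 49 lower (0.108%). D minus A from D and A alone, without it, called 115 of the 133 (86.5%) higher and 42 of the 49 (85.7%) lower, against 6.59% and 1.68% of all peaks. All 133 and all 49 had the same sign in D minus A.

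Peaks that rose in D were also a little higher in C, in each mouse. Over the 3957 peaks higher in D, the median C minus B log2 difference was 0.18 in mouse 1, 0.18 in mouse 2 and 0.25 in mouse 3, a mean of 0.21 ± 0.04 (SD, n = 3 mice), and 84.9% of the peaks had a higher estimate in C, against 48.5% of all peaks. Over the 1701 peaks lower in D it was -0.15, -0.18 and -0.14, a mean of -0.16 ± 0.02 (SD, n = 3), and 85.1% had a lower estimate in C, against 51.5% of all. Over the 39850 peaks not called in D minus A it was -0.04, -0.01 and 0.01. With sets called under the mouse term the medians over all mice were 0.16 and -0.10, in place of 0.20 and -0.15. All C libraries were above all B libraries at 31.0% of the peaks higher in D, against 5.73% of all peaks. They were below at 28.1% of those lower in D, against 3.87% of all peaks.

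These shifts were found at all levels. Over peaks higher in D the mean of the 3 mouse medians was 0.25 under 5 rppm, 0.19 from 5 to 20 rppm and 0.10 at 20 rppm or more, and over peaks lower in D it was -0.20, -0.17 and -0.12. At start sites within 1 kb it was 0.21 over 334 peaks higher in D and -0.12 over 110 lower, and beyond 1 kb it was 0.21 and -0.16. The share of reads in listed peaks was 92.5% to 93.7% in D and 94.7% in both libraries of A, so it moved with this comparison. Between C and B it was 94.3% in both libraries of mouse 1, 94.3% against 94.4% in mouse 2, and 93.5% against 94.2% in mouse 3. The part of this share in the medians was not tested.

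**Figure D5:**
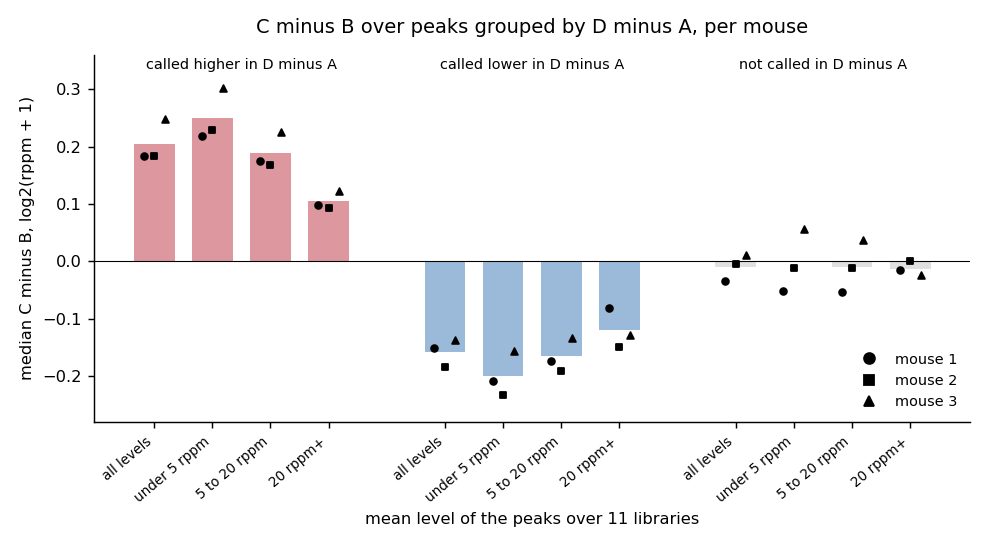
Median C minus B log2 difference over peaks called higher, called lower or not called in D minus A, for all peaks and by mean level, with bars for the mean of 3 mice and points for each mouse. Every mouse is above 0 for the first set and below 0 for the second at each level, and the third set lies within 0.06 of 0.

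Of the 17 losses, the 4 that were not called in D minus A were assigned to Fam163b, Acoxl, Cntn5 and Tubb2a. At Acoxl, in intron 9, the libraries had 39.4, 37.1 and 35.6 rppm in C and 53.7, 57.2 and 47.3 rppm in B, and the means were 57.4 rppm in A, 52.7 in B, 37.4 in C and 48.3 in D. At Tubb2a they had 7.26, 7.30 and 9.45 rppm in C and 14.3, 14.4 and 13.4 rppm in B, with means of 17.1 rppm in A, 14.03 in B, 8.003 in C and 12.5 in D. C had the lowest mean of the 4 populations at each of these 4 peaks.

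Whether the step from B to C differed from the steps that change only the reporter was tested as C minus B less the mean of B minus A and D minus C. No peak was called in that contrast by limma (0.0%), with or without the mouse term, or by edgeR or DESeq2 on recovered reads. At an unadjusted p under 0.05 there were 1054 peaks in limma without the mouse term, 2058 with it, 1148 in edgeR and 511 in DESeq2. A difference that is not called does not show that the steps are alike.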

How the data were processed

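ATAC-seq libraries of 4 sorted populations were analysed from 1 deposited table of 45508 peaks. The authors' values are RPM, named rppm per the file headers, and the definition of the denominator is not given in the sources used here. The submitters' processing notes name Bowtie, MACS2 and mm10 without versions. Per the file headers, a deposited distance to the nearest start site (a signed number of bases, treated here as its own unit) and a nearest gene come with each peak, and 15 peaks have no gene. In each library all values (100%) were a whole number of reads at a tolerance of 6e-04 rppm, and those reads were recovered. Replicates are separate mice, per the labels.

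Differences came from limma 3.58.1 (R 4.3.3), fitted to log2(rppm + 1) of 11 libraries with a mean for each population, a variance trend, two-sided tests and Benjamini-Hochberg adjustment over all peaks at 0.05. No filter on low values was added here. All 45508 listed peaks reached 1 rppm in 3 or more of the 11 libraries. Whether the authors filtered on this is not stated in the sources used here. The mouse number pairs the samples, as the labels give a mouse for each library: deviations of C and B from 1 mouse correlated at 0.482, 0.357 and 0.531, and those from different mice at -0.388 to -0.01. Deviations were from population means, which pushes values between mice below 0 where those within a mouse are above it. Replicate 3 was also the deepest library of each population, and the part of depth in these correlations was not tested. As the labels pair the libraries, the fit with the mouse term is given beside the main one. Alternatives were edgeR 4.0.16 and DESeq2 1.42.0 on recovered reads, other pseudocounts (0.25 and 5), scalings, a filter, thinning and left-out libraries. The scripts were tested on simulated data. The rule for named peaks took up to 12 peaks in each direction among calls whose higher group averaged 5 rppm or more, no overlap and a gene symbol, the sort and gate genes, and up to 4 genes of each list by smallest p. It named no called peak in the main fit. The members and lists were chosen with earlier results of these data known. Python 3.11.15, numpy 2.4.6, pandas 2.3.3 and matplotlib 3.10.9 made the tables and figures. Smallest exact p-values are 0.25 for 3 pairs and 0.1 for 3 against 3, so single peaks were tested only in the model across all peaks. Reads carry no molecular identifiers, so read numbers cover counting error only. One item of the B cell marker check is not reported here.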

Additional observations from a re-analysis of the deposited data

How the results depend on the processing

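Single settings moved the number of called peaks. Without the mouse term, limma called 3 peaks with a pseudocount of 0.25 (3 higher in C), 2 with robust moderation (2 higher) and 0 with a pseudocount of 5, a minimum mean of 5 rppm, quantile normalization, without mouse 2 or without mouse 3. edgeR called 71 (64 higher, 7 lower) and DESeq2 86 (75 higher, 11 lower), of which 43 and 62 were among the 88 calls with the mouse term. Leaving out each library in turn gave 0 to 26 calls, 0 to 22 higher and 0 to 4 lower, and the 26 came without D replicate 1, the shallowest library. With the replicate block, which is the mouse term, there were 88 (71 higher, 17 lower), 182 from B and C alone (133 and 49) and 111 after a correction for peak width (89 and 22). Around the fit with the block, a minimum mean of 5 rppm gave 44, quantile normalization 58, thinning 14, edgeR 814 and DESeq2 205, without mouse 1 there were 480, without mouse 2 there was 1 and without mouse 3 there was 0, and leaving out 1 library gave 1 to 354 (19 without B replicate 1 and 41 without D replicate 3). The contrast of the Ly6C step with the reporter steps called 0 in every setting run. The block also raised the D minus A calls to 5667 higher and 4001 lower. None of the 88 calls changed sign in a setting that tested it (57 were tested at the 5 rppm minimum). As all 88 had the same sign in each of the 3 mice, the fits without 1 mouse could not have changed a sign. The causes were not tested.

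The median C minus B difference over peaks higher in D kept its sign, and was 0.24 and 0.12 with pseudocounts of 0.25 and 5, 0.16 with quantile normalization, 0.16 with the block, 0.16 with the block and peak width, 0.27 after thinning, 0.24 in edgeR, 0.27 in DESeq2, 0.25 without mouse 2 and 0.34 without mouse 3, and it ran from 0.194 to 0.269 over left-out libraries. Over peaks lower in D it was -0.11 with a pseudocount of 5, -0.10 with the block, -0.10 with the block and peak width, -0.19 in DESeq2, -0.18 without mouse 2 and -0.35 without mouse 3, and it ran from -0.224 (without A replicate 1) to -0.127 (without D replicate 1) over left-out libraries. Signs changed at peaks that were not called: Foxp3 (-0.11 after thinning, -0.05 without C replicate 3, -0.057 without B replicate 2), Cr2 (0.058 without mouse 2), and after thinning Il2ra (0.019), Nfkbie (0.094), Zbtb46 (-0.35) and Cd226 (0.50). The part of depth in these changes was not tested.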
